A study of Mus musculus with 3 samples.

Results

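Immediate early genes are genes that a cell switches on within minutes of a stimulus, from transcription factors already present and without new protein synthesis. The 10 described here, Fos, Fosb, Jun, Junb, Jund, Egr1, Nr4a1, Ier2, Atf3 and Dusp1, were picked by symbol from the 56980 genes listed for each library, and all 10 had UMIs in every library. Fos and Jun family proteins pair with each other into the transcription factor AP-1. Egr1 and Nr4a1 are a zinc finger factor and an orphan nuclear receptor, known among other things for keeping blood stem cells quiescent. Ier2 is a small nuclear protein, Atf3 is a stress-induced bZIP factor that often acts as a repressor, and Dusp1 is a phosphatase that switches off the MAP kinases which induce the other genes. In bone marrow these genes are known to respond to growth factors, cytokines and stress, and also to the dissociation and sorting of cells before RNA is captured.

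C57BL/6 mice received 6.0 Gy of gamma-irradiation with or without cannabidiol (CBD), a non-psychoactive compound of Cannabis sativa, and femoral bone marrow nucleated cells (BMNCs) were taken at 14 days post-irradiation (DPI). The groups were unirradiated mice (Control), irradiated mice given the oil and DMSO solvent (IR) and irradiated mice injected intraperitoneally with CBD in that solvent (IR+CBD). By the methods CBD was given both before and after irradiation, with the last dose a day after it and so well before the marrow was taken. The methods name male mice, and no transgene or deletion was involved. For each group 1 droplet library was made from 3 pooled mice, after sorting Lin-Kit+, Lin-Kit- and Lin+ cells and remixing them at 5:4:1, so that the share of Kit+ progenitors was set by the mixing. With 1 library a group there was no replicate and no test between groups, and every interval below covers counting error only.

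Each library was a matrix of UMI counts, a UMI being 1 captured RNA molecule. Cells with at least 200 genes and at most 5% mitochondrial UMIs were kept, which left 10674 Control, 10345 IR and 10273 IR+CBD cells with 173466089 to 202361682 UMIs a library. From here on, 3 values in a row stand for Control, IR and IR+CBD in that order. Cells were gated on raw UMIs of lineage genes. At least 5 UMIs of Mpo (a granule enzyme of myeloid progenitors) took 3227, 2916 and 3294 cells, and at least 2 of Klf1 (the erythroid Krüppel-like factor) took 586, 1446 and 1181. At least 2 of Cd79a (a chain of the B cell receptor) took 3524, 4072 and 3456 cells, and at least 5 of Retnlg (a neutrophil protein) took 1004, 1076 and 1215. At least 3 of Siglech (a plasmacytoid dendritic cell lectin) took 273, 46 and 79 cells, and at least 1 of Cd34 together with 1 of Adgrl4 (both found on stem and progenitor cells) took 3116, 1952 and 1970. Between 1168 and 1688 cells a library passed no gate and between 2055 and 2470 passed several. Pairs of libraries shared 35 to 51 barcodes.

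Marker lists were summed in each gate as CPM (UMIs per 1000000 UMIs). The Klf1, Cd79a, Retnlg, Siglech and Mpo gates held their own markers, at 3653 to 4564, 8140 to 8474, 255747 to 268407, 7635 to 9103 and 17217 to 21774 CPM. Each list includes the gene used to gate, so these sums were set in part by the gating. Markers of other lineages differed between libraries in some of them. In the Siglech gate the neutrophil markers stood at 5160, 19100 and 5859 CPM, and in the Retnlg gate the erythroid markers stood at 465, 2169 and 1879 CPM. The Cd34 and Adgrl4 gate did not hold mainly stem cells. Its myeloid progenitor markers stood at 12241 to 14959 CPM and its stem and multipotent progenitor markers at 629 to 915 CPM, and 69.0%, 87.4% and 83.4% of its cells also passed the Mpo gate. Without those cells 967, 246 and 327 cells were left, with 2217, 1989 and 2080 CPM of the stem and multipotent progenitor markers and 595 to 629 CPM of the myeloid ones. Cd34 and Adgrl4 are in the first of these lists and Mpo is in the second. Both sums were therefore set in part by the choice of cells. This narrower set, chosen after the data were seen, is called the Mpo-low Cd34 and Adgrl4 cells.

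The sequence before the start of 8 of the 10 genes was read from the RefSeq promoter table of GRCm38.p6, in which the symbols Ier2 and Egr1 were not matched. The counts were made on GRCm39 according to the submitters' processing notes, so these positions are not those of the count table. The 5 stretches below are shown because they carry a letter match that most members with a window shared, TGACG, the core of the cyclic AMP response element bound by CREB and ATF proteins. Capitals mark TGACG on either strand (CGTCA where it lies on the other strand), and TATAAA on the strand shown. Each line is 120 bases, 5′ to 3′ on the strand of the gene.
Fos, chr12:85473770-85473889, + strand, up to the base before the start: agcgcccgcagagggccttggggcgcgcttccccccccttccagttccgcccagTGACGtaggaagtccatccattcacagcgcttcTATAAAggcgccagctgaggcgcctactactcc
Junb, chr8:84978749-84978868, - strand, up to the base before the start: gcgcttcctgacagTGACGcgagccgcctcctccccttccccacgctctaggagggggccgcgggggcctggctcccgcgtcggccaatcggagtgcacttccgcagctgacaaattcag
Nr4a1, chr15:101266726-101266845, + strand, up to the base before the start: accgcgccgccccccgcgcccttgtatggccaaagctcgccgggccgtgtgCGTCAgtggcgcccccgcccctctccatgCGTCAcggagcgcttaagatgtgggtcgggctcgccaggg
Atf3, chr1:191183334-191183453, - strand, up to the base before the start: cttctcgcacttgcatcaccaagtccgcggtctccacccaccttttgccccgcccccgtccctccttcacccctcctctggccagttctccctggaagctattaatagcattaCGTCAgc
Dusp1, chr17:26508553-26508672, - strand, ending 81 bases before the start: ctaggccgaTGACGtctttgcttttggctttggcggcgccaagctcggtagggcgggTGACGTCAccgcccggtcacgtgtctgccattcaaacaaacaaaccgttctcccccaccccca

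Over the 250 bases before the start, TGACG on either strand was found in 6 of the 8 members with a window (Fos, Fosb, Junb, Nr4a1, Atf3 and Dusp1) and in 17.8% of the 32851 windows of the table. Nr4a1 held 4 matches. The only match of Atf3 begins 7 bases before the start, and 7 of the 120 Atf3 bases shown lie in annotated exons. The full element TGACGTCA, which holds TGACG on both strands, was found in Dusp1 alone and in 1.55% of all windows. The GC box GGGCGG was found in 6 members and in 32.7% of all windows, and TATAAA on either strand in Fos alone and in 12.4%. The AP-1 site TGANTCA and the CArG box were found in none of the 8, and in 6.75% and 1.47% of all windows. Sequence further upstream than 250 bases was not searched, so sites there would be missed. These are matches of letters and say nothing of which factor was bound.

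The first comparison asks how these genes stood 14 days after irradiation. Over all filtered cells all 10 members were lower in IR than in Control with intervals wholly below 1, as were 36.8% of the 20226 genes tested. Of the 10, 6 fell at least 1.5-fold (9.23% of genes tested). The median log2 ratio of the members was -0.65, with a range of -1.92 to -0.38, and the median of all genes tested was -0.05. The members together took 0.268%, 0.173% and 0.190% of UMIs. The mix of lineages differed between libraries, and with combinations of gates weighted by their Control shares of cells the median was -0.35 and the ratios of 3 members were past 1.5-fold. This weighting counts cells rather than UMIs, and it used the 16 combinations with at least 20 cells in each library. The mean of the CPM of cells, without this weighting, gave a median of -0.54. The change from -0.65 to -0.35 therefore does not measure the mix alone. In sums over many cells, fewer cells with a gene on and less RNA in each cannot be told apart.

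**Figure D1:**
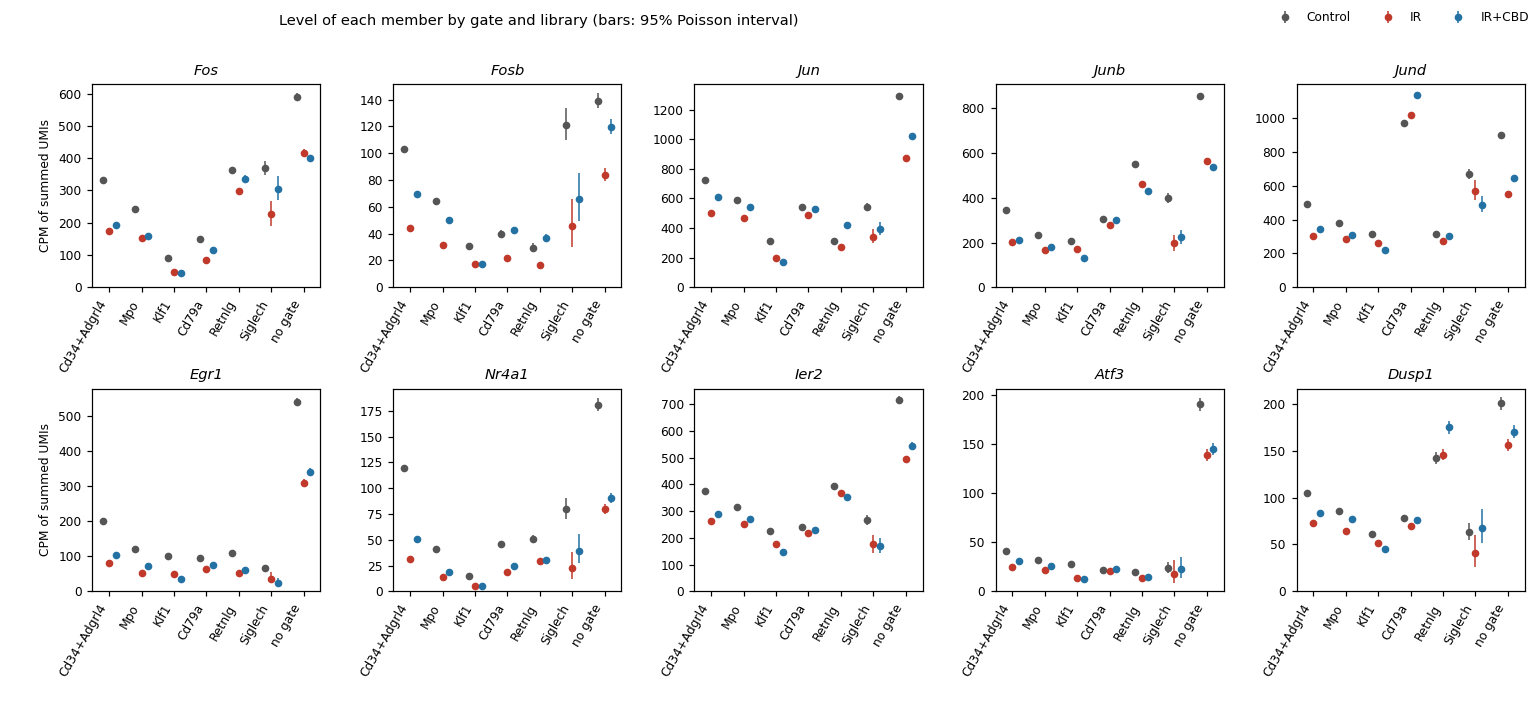
Level of each of the 10 members in each gate and in the cells of no gate, as CPM of summed UMIs, with points for the Control, IR and IR+CBD libraries and 95% Poisson intervals as bars. Most IR points lie below Control, and Jund in the Cd79a gate is an exception (972 CPM in Control, 1020 in IR).

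In the Fos family, Fos stood at 286, 150 and 165 CPM over all filtered cells, a ratio of 0.526 (95% interval 0.519 to 0.533) for IR over Control. Fos was lower in IR in each of the 6 gates, and it fell at least 1.5-fold in all but the Retnlg gate, where 363, 297 and 337 CPM gave a ratio of 0.818 (0.785 to 0.852). The call of Fos was lost, among other alternatives, in cells of the Mpo gate alone (0.791) and of the Cd79a gate alone (0.671), in the Cd79a gate with predicted doublets removed (0.7996) and in the Siglech gate with its threshold doubled (0.734). The Klf1 gate had the lowest Fos of the 6 gates in each library, at 91.1, 48.0 and 43.8 CPM. Fosb, a close relative of Fos, stood at 76.3, 32.6 and 49.6 CPM over all filtered cells and at 103, 43.9 and 69.2 CPM in the Cd34 and Adgrl4 gate. Fosb fell at least 1.5-fold in IR in every gate, from a ratio of 0.375 in the Siglech gate to 0.568 (0.517 to 0.624) in the Klf1 gate. In cells that passed the Mpo, Klf1 or Retnlg gate and no other gate the ratio of Fosb was 0.729, 0.771 and 0.870, and with predicted doublets removed it was 0.706 in the Cd79a gate and 0.843 in the Retnlg gate, so in these sets the call was lost.

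In the Jun family, Jun stood at 643, 425 and 496 CPM over all filtered cells, and its ratio of IR over Control ran from 0.629 in the Siglech gate and 0.636 in the Klf1 gate to 0.907 in the Cd79a gate. Junb, a Jun protein linked to restraint of myeloid proliferation, stood at 357, 242 and 240 CPM. The Retnlg gate had the highest Junb of the 6 gates in each library, at 552, 462 and 429 CPM, and a ratio of 0.836 (0.809 to 0.864) for IR over Control. Jund, the most constitutive of the Jun genes, stood at 547, 421 and 439 CPM over all filtered cells and differed least from Control of the 10 members, with a ratio of 0.769 that was 1.01 when the CPM of single cells were averaged. It was the only member with gates on both sides of 1 by their intervals. In the Cd34 and Adgrl4 gate it stood at 492, 306 and 346 CPM (0.621, 0.611 to 0.632, for IR over Control), and in the Cd79a gate at 972, 1020 and 1139 CPM (1.05, 1.03 to 1.06). The Cd79a gate had the highest Jund of the 6 gates in every library.

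Egr1 stood at 179, 77.9 and 92.7 CPM over all filtered cells, with a ratio of 0.435 (0.427 to 0.443) for IR over Control. It was highest in the Cd34 and Adgrl4 gate of each library, at 201, 80.1 and 105 CPM, and it fell at least 1.5-fold in all gates but the Cd79a gate, where the ratio was 0.671 (0.635 to 0.709), just short of that limit. With predicted doublets removed the ratio was 1.07 (0.571 to 1.86) in the Siglech gate and 1.01 (0.934 to 1.10) in the Cd79a gate, and both intervals held 1. The call of Egr1 in the Retnlg gate was lost in cells of that gate alone (0.777) and with predicted doublets removed (0.745). Nr4a1 had the lowest ratio of the 10 members over all filtered cells, with 83.8, 22.2 and 30.6 CPM (0.265, 0.256 to 0.274). It fell at least 1.5-fold in all 6 gates, from 0.260 (0.248 to 0.273) in the Cd34 and Adgrl4 gate, which had the highest Nr4a1 in each library, to 0.590 (0.522 to 0.667) in the Retnlg gate. In the cells of the Retnlg gate and of the Klf1 gate that passed no other gate its ratio was 0.972 and 0.756, so there the call was lost. With predicted doublets removed the ratio of Nr4a1 in the Retnlg gate was 0.925, with an interval that held 1. In the Mpo-low Cd34 and Adgrl4 cells Nr4a1 stood at 457, 194 and 262 CPM and Egr1 at 499, 284 and 270 CPM. All 10 members were lower in IR than in Control in that narrower set, with intervals wholly below 1 (19.0% of the genes tested in it).

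Ier2 stood at 355, 255 and 270 CPM over all filtered cells and was closest to Control in the Retnlg gate, at 394, 368 and 355 CPM (0.934, 0.899 to 0.970, for IR over Control). In cells of the Retnlg gate alone its ratio was 1.04, with an interval that held 1, and with predicted doublets removed it was 1.05. Atf3 stood at 46.1, 28.4 and 32.1 CPM and had its lowest ratio in the Klf1 gate, with 27.5, 13.9 and 12.3 CPM (0.505, 0.457 to 0.560). In the Cd79a gate the interval of Atf3 held 1, at 21.6, 20.4 and 22.6 CPM. With predicted doublets removed Atf3 stood there at 9.75 CPM in Control and 17.4 in IR (1.78, 1.49 to 2.13), so it was higher in IR and past 1.5-fold. In cells of the Cd79a gate alone its ratio was 1.41 (1.22 to 1.64). Dusp1 stood at 102, 75.1 and 85.4 CPM over all filtered cells. In the Retnlg gate, where Dusp1 was highest in each library, it stood at 142, 146 and 175 CPM (1.03, 0.966 to 1.09), and the cells of that gate with at least 2 UMIs of Cxcr2, a receptor of mature neutrophils, had 163, 189 and 218 CPM (1.16, 1.08 to 1.24).

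Gate by gate, the number of members that fell at least 1.5-fold in IR was 7 in the Cd34 and Adgrl4 gate (8.09% of genes tested), 4 in the Mpo gate (5.02%), 6 in the Klf1 gate (4.85%) and 8 in the Siglech gate (5.80%). It was 3 in the Cd79a gate (4.79%) and 3 in the Retnlg gate (3.77%). Fewer members were past this limit in some narrower sets. In cells of exactly 1 gate the number was 2 in the Mpo gate (2.56% of genes tested there), 3 in the Klf1 gate (4.45%) and 0 in the Retnlg gate (2.81%), and in the Cd79a gate with predicted doublets removed it was 1 (3.91%). The median log2 ratios were -0.75, -0.51, -0.73, -0.68, -0.16 and -0.27 in the same order of gates, and the medians of all genes tested lay between -0.06 and -0.01. In the cells of no gate 5 members fell at least 1.5-fold (5.92%), with a median of -0.58. These cells had higher CPM than any gate for every member except Jund, in all 3 libraries, and Dusp1, in IR+CBD.

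**Figure D2:**
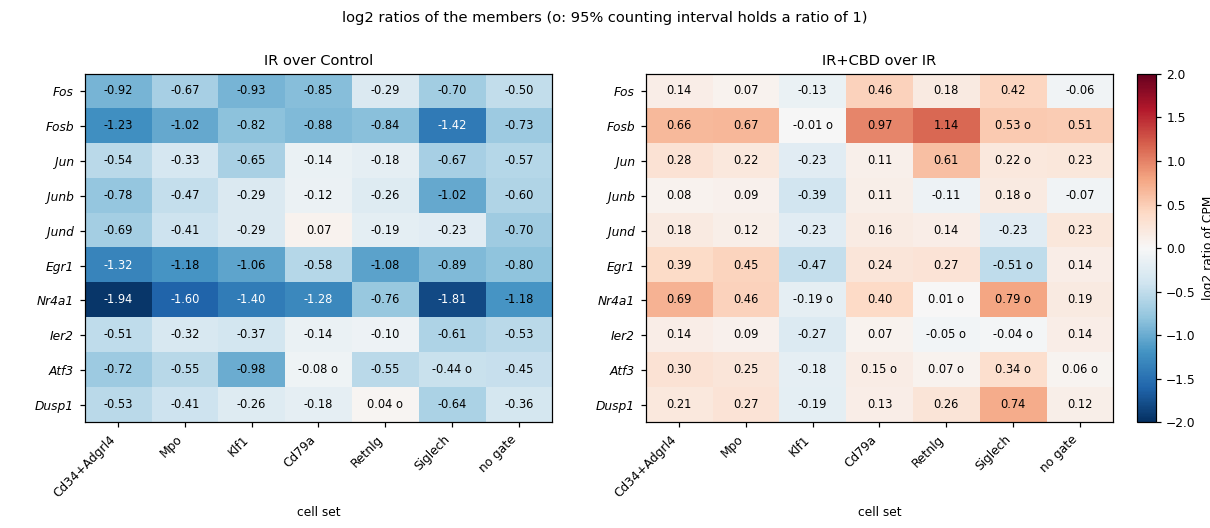
log2 ratio of CPM of each member (rows) in each cell set (columns), for IR over Control on the left and IR+CBD over IR on the right, with red for higher, blue for lower and an o where the 95% counting interval holds a ratio of 1. The left panel is blue except for Jund in the Cd79a gate (0.069) and Dusp1 in the Retnlg gate (0.040, with an o), though the blue of Jun, Junb, Ier2, Atf3 and Dusp1 in the Cd79a gate turned in cells of that gate alone. In the right panel the Klf1 column has no ratio above 1.

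The direction in the B lineage depended on which cells were counted. In the whole Cd79a gate the myeloid progenitor markers stood at 4541, 3750 and 4542 CPM, and in the 3165, 3706 and 3117 cells that passed the Cd79a gate and no other they stood at 583, 308 and 426 CPM. Neutrophil markers stood at 2954, 4488 and 4638 CPM in the latter, and their part in the ratios was not tested. In these unshared cells the median log2 ratio of the members for IR over Control was 0.12, with 6 intervals wholly above 1 (14.6% of the genes tested in them) and 4 wholly below 1 (20.5%). Fos at 96.8 and 65.0 CPM in Control and IR, Fosb at 30.5 and 19.6, Egr1 at 79.2 and 70.4 and Nr4a1 at 30.2 and 15.9 CPM were lower in IR. Jun at 520 and 564 CPM, Junb at 296 and 320, Jund at 1218 and 1390, Ier2 at 192 and 208, Atf3 at 14.8 and 20.9 and Dusp1 at 65.4 and 71.3 CPM were higher in IR. Fos, Fosb and Nr4a1 were lower and Jund higher in IR under each of the 9 alternatives run on this gate, while Jun, Junb, Ier2, Atf3 and Dusp1 lay on the other side of 1 under 3 of them.

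The Retnlg gate moved in the same way when cells of several gates were left out. In the 838, 909 and 1003 cells that passed it alone, 3 members had intervals wholly below 1 for IR over Control (14.9% of the genes tested in them) and 2 wholly above (8.44%). Fos, Junb and Egr1 had ratios of 0.928, 0.894 and 0.777. Jun stood at 183, 243 and 415 CPM there (1.32, 1.24 to 1.41), against 311, 274 and 418 CPM in the whole gate, and Dusp1 at 161, 178 and 215 CPM (1.10, 1.03 to 1.19). The ratio of Jun for IR over Control in neutrophils was therefore below 1 in the whole gate and above 1 in its unshared cells.

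**Figure D3:**
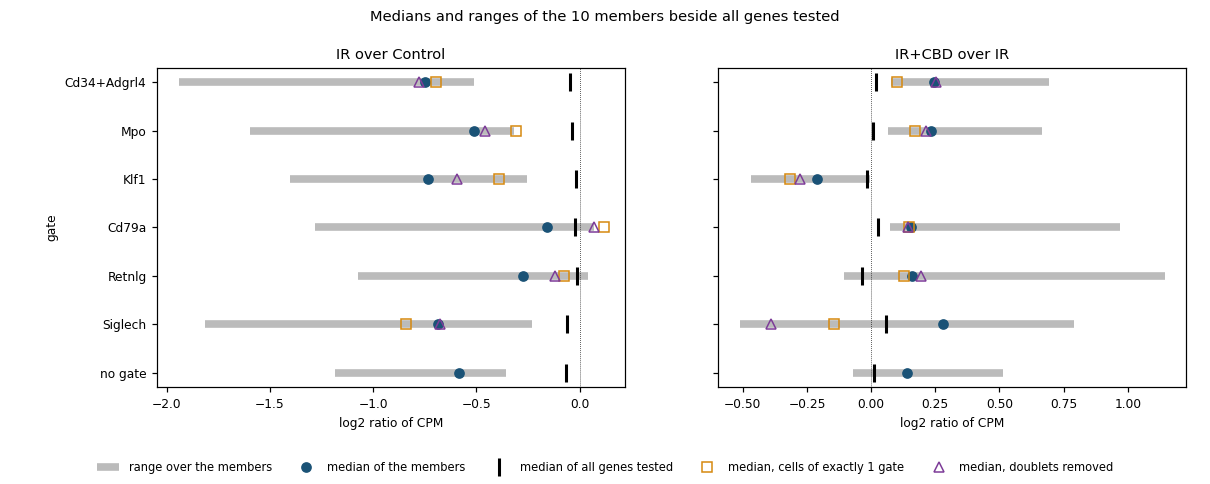
Median log2 ratio of the 10 members (filled circle) in each cell set, with the range over the members (grey bar), the median of all genes tested (black tick), and the medians in cells of exactly 1 gate (open square) and with predicted doublets removed (open triangle). For IR over Control all circles lie below 0, but the square (0.12) and the triangle (0.068) of the Cd79a gate lie above 0. For IR+CBD over IR the Klf1 gate lies below 0 with all 3 symbols, and the triangle of the Siglech gate (-0.39) lies below 0 while its circle (0.28) lies above. That triangle and the square of the same gate rest on 8 members.

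The comparison of IR+CBD with IR asks whether CBD moved these genes after the same dose. Over all filtered cells 9 of 10 members had intervals wholly above 1 (19.7% of 19867 genes tested), and only Fosb rose at least 1.5-fold (2.35%), with a ratio that was 1.45, short of this limit, at Control shares of gates. The median log2 ratio was 0.18. Junb was the exception, at 242 and 240 CPM (0.991, 0.978 to 1.00). No member reached its Control level over all filtered cells, where IR+CBD over Control ran from 0.365 for Nr4a1 to 0.841 for Dusp1.

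In the Mpo gate all 10 members had intervals wholly above 1 for IR+CBD over IR (17.7% of genes tested), and in the Cd34 and Adgrl4 gate all 10 as well (19.0%). Fosb rose at least 1.5-fold in the Mpo gate, from 31.6 to 50.2 CPM (1.59, 1.51 to 1.66, with 2.55% of genes past this limit), and Fosb and Nr4a1 did so in the Cd34 and Adgrl4 gate (2.28%). There Nr4a1 stood at 31.2 CPM in IR and 50.6 in IR+CBD (1.62, 1.53 to 1.71), still below the 120 CPM of Control. The other members of the Mpo gate differed by less, from 1.05 for Fos to 1.37 for Egr1 and Nr4a1, and in cells of the Mpo gate alone the ratio of Fos turned to 0.894, that of Fosb was 1.41, so that its call was lost, and that of Egr1 was 1.56. Median depth in the Mpo gate was 30684 UMIs a cell in IR and 24151 in IR+CBD, and its part in these ratios was not tested beyond the thinned counts given below. In the cells of the gate with at least 2 UMIs of F13a1, a gene of the monocyte branch, the median of the members was 0.30 on the log2 scale and Egr1 had a ratio of 1.74. In those with at least 5 UMIs of Elane, neutrophil elastase, the median was 0.17 and Egr1 had 1.37.

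The members of the Mpo-low Cd34 and Adgrl4 cells differed among themselves. In these cells the median of IR+CBD over IR was -0.028 on the log2 scale. In IR and IR+CBD Jun at 755 and 942 CPM, Jund at 520 and 633, Nr4a1 at 194 and 262 and Ier2 at 420 and 474 CPM made up the 4 members with intervals wholly above 1 (8.98% of the genes tested in them). Fos at 402 and 342 CPM and Junb at 506 and 452 CPM had intervals wholly below 1 (9.34%). Fosb, Egr1, Atf3 and Dusp1 had intervals that held 1, and Fosb, the member with one of the largest ratios in the whole gate, stood at 151 and 150 CPM. The neutrophil markers of these cells stood at 6093, 4948 and 9828 CPM, and their part in these ratios was not tested.

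The Klf1 gate went the other way. All 10 members had ratios of IR+CBD over IR below 1, and 8 had intervals wholly below 1 (16.3% of 14500 genes tested). None fell at least 1.5-fold (3.33% of genes). Egr1 stood at 102, 48.8 and 35.3 CPM (0.722, 0.680 to 0.766, for IR+CBD over IR) and Junb at 208, 170 and 130 CPM (0.764, 0.741 to 0.789). Ier2 stood at 228, 176 and 146 CPM (0.827, 0.802 to 0.852), Jun at 309, 197 and 168 CPM (0.852, 0.829 to 0.877) and Jund at 318, 259 and 221 CPM (0.853, 0.832 to 0.874). For these genes each library therefore lay below the one before it, rather than IR+CBD lying between IR and Control. Dusp1, Atf3 and Fos had ratios of 0.876, 0.885 and 0.912. The intervals of Nr4a1, at 14.9, 5.63 and 4.94 CPM, and of Fosb, at 30.8, 17.5 and 17.4 CPM, held 1. The median of IR+CBD over Control was -0.85 in this gate.

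In the 1193 IR and 984 IR+CBD cells that passed the Klf1 gate alone, all 10 members had intervals wholly below 1 for IR+CBD over IR (14.8% of what was tested in them), with a median of -0.32 on the log2 scale, and Nr4a1, at 0.625 (0.493 to 0.788), was past 1.5-fold (3.48%). All members but Fosb stayed below 1 under each of the 9 alternatives run on this gate, and Fosb reached 1.16 with the threshold of Klf1 doubled, which brought the median to -0.12. The gate spans early and late erythroid cells. Cells with Gata2, a factor of early progenitors, were 327 of 586, 927 of 1446 and 696 of 1181. In them the median was -0.22 with 7 intervals wholly below 1 (14.0% of genes), and Egr1 stood at 158, 66.9 and 47.9 CPM. In the cells with at least 20 UMIs of the globin gene Hba-a1, 242 in IR and 184 in IR+CBD, the median was 0.030 and Jund and Egr1 were the 2 members with intervals wholly below 1 (9.04%). The erythroid markers of the whole gate stood at 4564, 3653 and 4014 CPM and its basophil and mast cell markers at 71.8 CPM in IR and 20.4 in IR+CBD, and their part in the members' ratios was not tested.

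**Figure D4:**
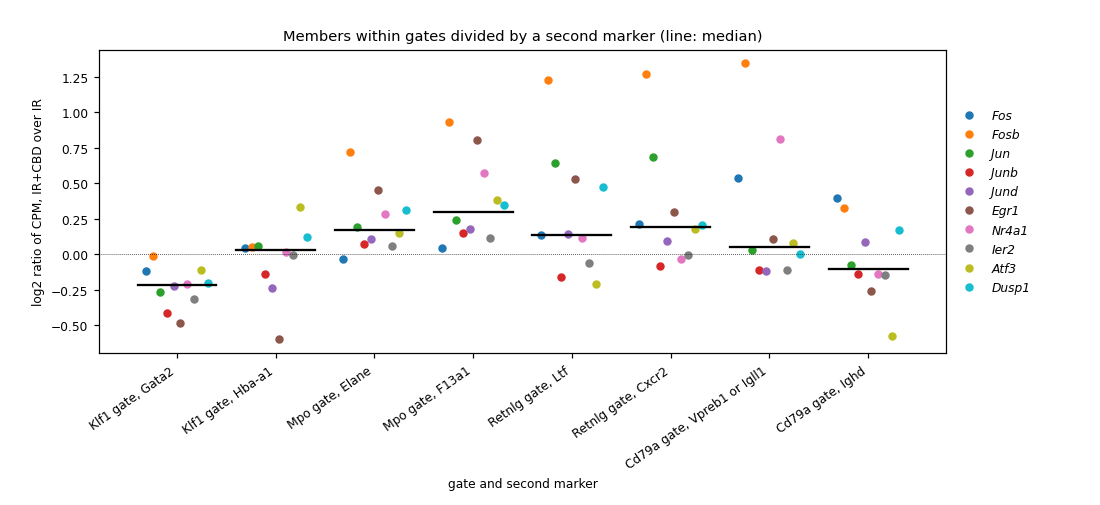
log2 ratio of CPM of IR+CBD over IR for each member (coloured points) in gates divided by a second marker, with the median as a line. The Gata2 cells of the Klf1 gate have all 10 points below 0 and a median of -0.22, the Elane and F13a1 cells of the Mpo gate have medians of 0.17 and 0.30, and Fosb is the highest point in the subsets of the Mpo and Retnlg gates.

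In the Retnlg gate 6 members had intervals wholly above 1 for IR+CBD over IR (7.78% of 11497 genes tested) and Junb alone wholly below (14.3%). Fosb stood at 29.6, 16.6 and 36.6 CPM (2.21, 1.90 to 2.58) and Jun at 311, 274 and 418 CPM (1.52, 1.46 to 1.59), and both rose at least 1.5-fold (1.71% of genes) to levels above Control. Dusp1 at 175 CPM was also above Control (1.20, 1.13 to 1.27, for IR+CBD over IR). Junb went from 462 to 429 CPM (0.930, 0.898 to 0.962), and Ier2, Nr4a1 and Atf3 had intervals that held 1. In cells of the Retnlg gate alone Ier2 was also wholly below 1 (0.935, 0.893 to 0.978), and the interval of Egr1 held 1 (0.970 to 1.24). In the cells with at least 5 UMIs of Ltf, a granule protein of immature neutrophils, and in those with Cxcr2, the ratios of Fosb were 2.35 and 2.41 and those of Jun 1.56 and 1.61.

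In the Cd79a gate 9 members had intervals wholly above 1 for IR+CBD over IR (20.9% of 14704 genes tested), and only Fosb rose at least 1.5-fold, with 40.0, 21.8 and 42.7 CPM (1.96, 1.79 to 2.15, and 2.48% of genes). In cells of the Cd79a gate alone 6 members had intervals wholly above 1 (20.4% of genes tested in them) and 4, Jun (1.00), Ier2, Atf3 and Dusp1, had intervals that held 1. With the mean of the CPM of cells Jun was at 0.951, Atf3 at 0.802 and Dusp1 at 0.9899. Stages of the B lineage differed. In the cells with UMIs of Vpreb1 or Igll1, the surrogate light chain of early B cells, 3 members had intervals wholly above 1 (14.3%) and 3 wholly below (12.4%). Fosb stood there at 23.5, 13.9 and 35.4 CPM (2.54, 2.14 to 3.02) and Nr4a1 at 33.2, 15.9 and 28.0 CPM (1.76, 1.48 to 2.10), and Fos had a ratio of 1.45, while Junb, Jund and Ier2 were lower at ratios of 0.926, 0.923 and 0.927. In the cells with Ighd, the heavy chain of mature B cells, Fos, Fosb and Jund had intervals wholly above 1 (10.4%) and Junb, Egr1, Ier2 and Atf3 wholly below (9.97%), with a median of -0.11 on the log2 scale.

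The Siglech gate held 46 IR and 79 IR+CBD cells, and its ratios had the widest intervals. Fos stood at 369, 227 and 305 CPM (1.34, 1.09 to 1.66, for IR+CBD over IR) and Dusp1 at 63.2, 40.6 and 68.0 CPM (1.67, 1.03 to 2.80), the 2 members wholly above 1 (11.6% of genes tested), with Dusp1 past 1.5-fold (7.16%). Jund stood at 671, 572 and 489 CPM (0.855, 0.740 to 0.989), alone wholly below 1 (6.48%), and the other 7 intervals held 1. The neutrophil markers given above stood highest in the IR cells of this gate. With predicted doublets removed the median turned from 0.28 to -0.39, over 8 members, and the ratio of Fos to 0.894.

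The same genes were counted cell by cell with each cell thinned to 2000 UMIs, so that depth was equal, which left out 296 to 452 shallower cells a library. UMIs of 3 or more members were found in 56.7%, 44.9% and 47.3% of all thinned cells. In the Cd34 and Adgrl4 gate the shares were 65.8%, 41.3% and 48.9%, and in the Mpo gate 49.6%, 33.7% and 38.7%. In the Klf1 gate they were 30.2%, 22.1% and 17.7%, and the exact Clopper-Pearson intervals of Control (26.5% to 34.1%) and IR+CBD did not overlap, while those of IR and IR+CBD did, by a narrow margin. The Cd79a gate had 51.2%, 52.5% and 54.4% and the Retnlg gate 56.5%, 53.6% and 55.4%, so in these gates the libraries differed less than in the progenitor gates. The Siglech gate had 56.4%, 41.3% and 34.6%, so its share was lower in IR+CBD than in IR, with intervals that overlapped, while its median ratio over summed UMIs was above 1. Nr4a1 was found in 23.4%, 6.5% and 9.4% of thinned cells of the Cd34 and Adgrl4 gate and in 61.9%, 34.2% and 39.4% before thinning. No gate should lack these genes, so no level of free RNA could be set for them.

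**Figure D5:**
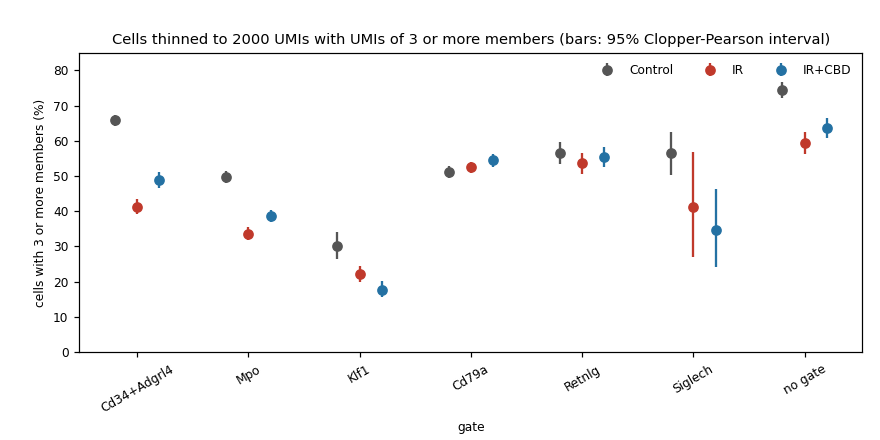
Percent of cells thinned to 2000 UMIs that had UMIs of 3 or more of the 10 members, by gate and library, with 95% Clopper-Pearson intervals as bars. In the Klf1 gate the order is Control (30.2%), IR (22.1%) and IR+CBD (17.7%), in the Cd34 and Adgrl4 gate IR+CBD (48.9%) lies between IR (41.3%) and Control (65.8%), and in the Cd79a and Retnlg gates the libraries lie between 51.2% and 56.5%.

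Other genes of the same response were counted from lists that name no member. Of 33 other immediate early genes tested over all filtered cells, 30 had ratios of IR over Control below 1 and 14 fell at least 1.5-fold, with a median log2 ratio of -0.45. Of all genes tested there 58.4% were below 1 and 9.23% fell at least 1.5-fold. Nr4a3 and Egr3, relatives of Nr4a1 and Egr1, were lowest at 0.268 and 0.334, and Myc, at 1.10, and Btg1, at 1.04, were highest. For IR+CBD over IR 28 of 32 of these genes were above 1 in the Mpo gate, with a median of 0.18, and 25 of 30 were below 1 in the Klf1 gate, with a median of -0.15, while 48.3% and 56.4% of all genes tested in these gates were below 1. The kinases and transcription factors that act upstream of these genes had 21 of 24 ratios of IR over Control below 1 and a median of -0.19, and only Spry1, an inhibitor of the pathway, fell at least 1.5-fold, at 0.597. Elk3, at 0.734, was the next lowest, and Map2k1 and Map2k2 were highest at 1.09 and 1.07. Of 10 other AP-1 partners 6 were below 1, a share near the 58.4% of all genes, with Batf3 at 0.675 and Batf at 0.770 lowest and Bach2 at 1.10 and Batf2 at 1.56 highest.

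The heat shock genes, which dissociation of tissue also induces, went the other way. For IR over Control 8 of 12 were above 1 with a median log2 ratio of 0.24, led by Hspa1a with 4.57, 8.51 and 6.69 CPM (1.86) and Hspa1b with 5.62, 9.96 and 7.64 CPM (1.77), and Hspb1 at 0.611 and Dnajb1 at 0.823 were lowest. For IR+CBD over IR 10 of 12 heat shock genes were below 1 (49.4% of all genes tested), while 9 of the 10 members were above it. Any part of cell handling in the members' ratios was not tested.

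Across the 18 sums of the 6 gates and 3 libraries, each centred on its gate, the genes whose log2 levels were most like the mean of the members were Stat3 (Pearson r = 0.97), Csrnp1, Epc1, Pnrc1, Zbtb20, Kdm6b, Iqcb1, Arih1, Epc2 and Tra2b (r = 0.92), of 4904 genes with at least 20 UMIs in each sum. The points share libraries, and cells can pass several gates, so r is given as a description.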

How the data were processed

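For each library the authors deposited raw UMI counts as a sparse matrix with its barcodes and gene names. The processing notes name Cell Ranger 4.0 and GRCm39 and the matrix headers name 7.0.1, a version that counts intron reads by default. Cells were filtered and gated on these deposited counts, and UMIs summed per gate and library were divided by the sum over all genes (CPM). Ratios have exact conditional binomial 95% intervals. A gene was tested with at least 50 UMIs over both libraries, and called at a ratio of at least 1.5-fold with an interval excluding 1. Medians of the members used those with at least 20 UMIs over both libraries, unless an alternative kept all 10. Whole libraries held 199383228 Control, 206932522 IR and 177806843 IR+CBD UMIs. The members, gates and lists were chosen with earlier results of these data known. Named genes were all members, the 2 highest and 2 lowest of each list for IR over Control, and the 10 genes most like the members. Cells could pass several gates and predicted doublets were kept, except in the alternatives (Scrublet in scanpy 1.11.5, the top 0.8% of cells per 1000 cells). Counts were simulated from the Klf1 gate for IR+CBD over IR with counting error only, the error that the intervals assume. Of the intervals of 14515 genes 95.6% held the true ratio, which shows only that they were computed as meant. Spread between cells, mice or libraries was not simulated. Python 3.11.15, numpy 2.4.6, scipy 1.17.1, pandas 2.3.3 and matplotlib 3.10.9 were used.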

Additional observations from a re-analysis of the deposited data

Results flagged for a closer look

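For 8 members the ratio lay wholly below 1 in at least 1 gate and wholly above 1 in another, by counting intervals. These differences between gates were not tested, since each group is 1 library, and the values below are the furthest on each side. How many of all genes meet this rule over the 6 gates was not counted, so whether 8 of 10 is unusual cannot be said. For IR+CBD over IR, 6.48% to 18.1% of genes tested in a single gate lay wholly below 1, and 7.78% to 20.9% wholly above. For IR+CBD over IR, the low side was the Klf1 gate each time. Fos was at 0.912 in the Klf1 gate and 1.37 in the Cd79a gate, Jun at 0.852 and, in the Retnlg gate, 1.52, and Junb at 0.764 and, in the Cd79a gate, 1.08. Jund was at 0.853 and, in the Cd34 and Adgrl4 gate, 1.13. Egr1 was at 0.722 and, in the Mpo gate, 1.37. Ier2 was at 0.827 and 1.10, and Atf3 at 0.885 and 1.23, with the Cd34 and Adgrl4 gate as the high side of both. In that gate without cells of the Mpo gate Ier2 was at 1.13, while Atf3 was at 0.966 with an interval that held 1. Dusp1 was at 0.876 and, in the 79 IR+CBD against 46 IR cells of the Siglech gate, 1.67. With predicted doublets removed the interval of Dusp1 in the Siglech gate held 1 (0.946 to 7.34). For IR over Control, only Jund had gates on both sides, at 0.621 in the Cd34 and Adgrl4 gate and 1.05 in the Cd79a gate.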

How the results depend on the processing

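Of 116 alternatives run on the 14 medians of the members (all filtered cells and 6 gates, for IR over Control and IR+CBD over IR, on the log2 scale), 7 turned the direction. For IR over Control the median of the Cd79a gate turned from -0.16 to 0.068 with predicted doublets removed, to 0.12 in cells of exactly 1 gate and to 0.070 with the mean of the CPM of cells. For IR+CBD over IR the median of the Cd34 and Adgrl4 gate turned from 0.25 to -0.028 without cells of the Mpo gate, an alternative chosen after the data were seen, where Fosb moved from 1.58 to 0.996. The median of the Siglech gate for that comparison turned from 0.28 to -0.39 with doublets removed and to -0.14 in cells of exactly 1 gate, both over 8 members. With the mean of the CPM of cells it turned to -0.16. Egr1 in the Siglech gate, IR over Control, turned to 1.07 with doublets removed, with an interval that held 1. Medians that moved were, in cells of exactly 1 gate, -0.31 (Mpo gate) and -0.075 (Retnlg gate) for IR over Control and 0.10 (Cd34 and Adgrl4 gate) for IR+CBD over IR, then -0.35 for IR over Control over all filtered cells at Control shares of gates, and -0.12 in the Klf1 gate for IR+CBD over IR at doubled thresholds. Where no value shows it, the cause was not tested. The medians of IR+CBD over IR ranged from 0.16 to 0.22 over all filtered cells and from -0.32 to -0.12 in the Klf1 gate. Of 140 single ratios under 1156 alternatives, 32 lay on the other side of 1 at least once, in 58 cases. No paired analysis was possible because each group is 1 library, and no replicate could be left out. Depth limits the Siglech gate most, with 46 IR cells.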

Other observations

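Cells of no gate were divided by other markers after the data were seen. Those with at least 3 UMIs of Csf1r, the receptor of monocytes and macrophages, were 81, 59 and 55 cells in Control, IR and IR+CBD. Egr1 stood at 487, 97.5 and 694 CPM in them, so that IR+CBD stood 7.12-fold over IR (5.79 to 8.84) after a log2 ratio of -2.32 for IR over Control. Dusp1 stood at 288, 215 and 416 CPM in these cells and Ier2 at 661, 417 and 732 CPM. On the log2 scale the members had a median of -0.60 in IR against Control and of 0.63 in IR+CBD against IR. Cells with at least 3 UMIs of Mcpt8, a basophil protease, numbered 24, 20 and 35 and had the highest Jun of the cell sets examined, at 5528, 4769 and 3825 CPM. Their median for IR+CBD over IR was -0.43, over 8 members. Cells with at least 3 UMIs of Pf4, a platelet factor, numbered 74, 33 and 59 and had a median of -0.0057 for IR+CBD over IR, and those with at least 3 of Nkg7, a gene of cytotoxic cells, numbered 467, 333 and 350 and had a median of 0.13. These sets rest on few cells, and nothing of why they differ was tested.

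The 1482, 1356 and 1179 cells left out for more than 5% mitochondrial UMIs did not follow the kept cells for Jund, which stood at 301, 601 and 543 CPM in them (95% interval of IR over Control 1.87 to 2.14), or for Junb, at 149, 192 and 175 CPM (1.29, 1.16 to 1.43). The interval of Ier2 held 1 (1.04, 0.930 to 1.16). Jun stood at 346, 313 and 636 CPM and Fosb at 112, 38.6 and 81.9 CPM in those cells.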
